A study of Mus musculus with 24 samples.

Results

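Hmgcs1, Idi1, Fdft1, Sqle and Cyp51 encode enzymes of cholesterol synthesis, and Srebf2 and Insig1 encode proteins that set the transcription of those enzymes. All probe sets annotated to these 7 symbols were taken, which gave 15 of the 35066 probe sets tested and 7 of 15427 genes with a probe set of their own. They were measured on 24 Affymetrix MOE430_2 arrays in 8 groups of 3. Small intestine came from AhCre-positive mice that were homozygous for a floxed Apc allele (Apcfl/fl) and from AhCre-positive control mice labelled wild-type, each dissected at day 3, 4 or 5 after induction. All of these mice, controls included, had received 3 injections of 80 mg/kg beta-naphthoflavone, which switches on Cre through the Cyp1a1 promoter of the AhCre transgene. Colonic polyps and normal colonic mucosa came from ApcMin mice, which carry a truncating germline mutation of Apc. The labels call 5 of these 6 colonic samples untreated and leave the treatment of polyp replicate 1 unstated. Each polyp array held polyps pooled from the colon of 1 mouse, and the labels give no ages. Apc restrains Wnt signalling, so both arms were designed to set tissue that has lost Apc against tissue with at least 1 working copy. The AhCre mice were on an outbred background. The polyp and colon tissue was described as paired, but the 6 colonic array names each end in a different code, so no pairs were formed. The p-values measure the spread between these arrays.

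Cholesterol is built from acetyl-CoA through mevalonate, isoprenoid phosphates, squalene and lanosterol, and most enzymes of the route share a transcriptional control. SREBP2, the product of Srebf2, is a membrane-bound transcription factor of the endoplasmic reticulum. Its escort Scap carries it to the Golgi when sterols are low, where the proteases Mbtps1 and Mbtps2 release the part that enters the nucleus. Insig proteins hold the Scap complex back when sterols are plentiful, and Insig1 is itself a target of SREBP. In the intestine, cells both make cholesterol and take it up from the diet, and dividing cells need sterols for new membranes.

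The bases upstream of the annotated start are printed for 4 of the genes. Of the 5 promoters matched, 3 share a sequence, and these 3 are printed with that of Insig1. The promoter of the enzyme Idi1 does not hold that sequence and is not printed. Whether the sequence bears on how the genes correlate across arrays was not tested. RefSeq promoters (GRCm38.p6) were matched for 5 of the 7 genes, Hmgcs1, Idi1, Srebf2, Insig1 and Cyp51, while Sqle and Fdft1 had no match in that table. Each line holds the 250 bases before the start, on the strand of the gene, at chr13:119690101-119690350 (plus strand) for Hmgcs1, chr5:4104698-4104947 (minus strand) for Cyp51, chr15:82147019-82147268 (plus strand) for Srebf2 and chr5:28071162-28071411 (plus strand) for Insig1. Capitals mark matches to TCACCNCA, a form of the sterol regulatory element, to CCAAT, the box bound by NF-Y (read as ATTGG on the other strand), and to CACGTG, an E-box.
Hmgcs1: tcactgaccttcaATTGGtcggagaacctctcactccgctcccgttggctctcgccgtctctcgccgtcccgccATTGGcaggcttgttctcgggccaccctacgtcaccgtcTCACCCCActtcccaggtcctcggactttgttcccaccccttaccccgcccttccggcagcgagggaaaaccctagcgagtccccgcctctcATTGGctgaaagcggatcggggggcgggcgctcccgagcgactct
Cyp51: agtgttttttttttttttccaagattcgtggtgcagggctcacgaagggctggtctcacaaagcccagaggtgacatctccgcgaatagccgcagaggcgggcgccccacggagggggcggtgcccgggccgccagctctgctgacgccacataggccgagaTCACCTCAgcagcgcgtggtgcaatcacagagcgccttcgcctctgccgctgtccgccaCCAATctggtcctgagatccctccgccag
Srebf2: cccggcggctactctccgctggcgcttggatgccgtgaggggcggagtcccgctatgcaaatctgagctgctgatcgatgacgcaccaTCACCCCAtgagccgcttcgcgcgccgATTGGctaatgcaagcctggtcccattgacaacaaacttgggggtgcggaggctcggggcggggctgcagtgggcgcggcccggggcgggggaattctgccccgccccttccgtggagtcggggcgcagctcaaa
Insig1: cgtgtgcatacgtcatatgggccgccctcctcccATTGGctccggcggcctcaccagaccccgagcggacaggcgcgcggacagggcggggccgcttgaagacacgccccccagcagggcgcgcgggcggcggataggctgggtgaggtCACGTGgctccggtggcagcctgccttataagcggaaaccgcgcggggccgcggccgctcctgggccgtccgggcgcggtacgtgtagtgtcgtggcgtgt

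In windows from 250 bases before to 50 bases after the start, searched on both strands, TCACCNCA began 137 bases upstream of Hmgcs1, 162 upstream of Srebf2 and 88 upstream of Cyp51, and was not matched in Idi1 or Insig1. It was matched in 4.42% of all 32851 promoters of the same length. CCAAT was matched in all 5 windows, 4 times in that of Hmgcs1, and in 37.4% of all promoters. CACGTG was matched in Insig1, 101 bases upstream, and in 7.15% of all promoters. No match shared a base with another in these 5 windows. The motif letters were chosen with these sequences in view, so the shares are a description and not a test, and a match is not evidence that a factor binds there.

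Values below are scaled signals, a linear signal recovered from the deposited standardized scores and brought to the same geometric mean, 100, on all arrays. Differences are given on the scale of log2(scaled signal + 16), which understates the change of dim probe sets. A gene is represented by its brightest probe set on average, and the others are given beside it. Adjusted p-values are from limma with Benjamini-Hochberg adjustment over all probe sets, and a change is called at an adjusted p under 0.05. Before scaling, the geometric mean signal of an array ran from 69.6 to 176, and arrays of a group correlated at 0.923 to 0.976 over all probe sets. The spread of log2 signals within an array, which the authors' standardization had divided out, had an SD of 2.26 to 2.34 on the Apcfl/fl arrays of day 4 against 2.00 to 2.18 on their controls, and 2.22 to 2.38 against 1.96 to 2.10 at day 5, so it went with genotype on these days. Of the 4 probe sets of Apc itself, 1 was lower in Apcfl/fl intestine (1420957_at), 1 was higher (1450056_at) and the other two were not called. Their position relative to the floxed part was not given in the sources used here, so Apc did not check the labels. The summed signal of 19 enterocyte markers was 21378 to 119016 in the small intestinal arrays against 1393 to 3993 in the colonic arrays.

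Over the mean of the 3 days, 5 of the 7 genes were higher in Apcfl/fl than in wild-type small intestine, namely the 5 enzymes. Among all genes tested, 29.2% were called higher in this comparison, so a call on its own was common here. The differences were 1.00 ± 0.16 (SE) for Idi1, 0.89 ± 0.22 for Cyp51, 0.87 ± 0.21 for Hmgcs1, 0.87 ± 0.21 for Sqle and 0.72 ± 0.17 for Fdft1, or 1.64-fold to 2.00-fold, from 9 arrays a genotype. Srebf2 (0.31 ± 0.14, adjusted p = 0.079) and Insig1 (0.045 ± 0.17, adjusted p = 0.839) were not called. The median over the 7 genes was 0.87, against 0.0084 over all genes. All 15 probe sets had a difference above 0, and 13 of them passed the test (26.3% of all probe sets were called higher). In colonic polyps the direction was the other: 2 of the 7 genes, Hmgcs1 and Sqle, were lower than in normal colon and 0 were higher, where 8.91% of all genes were called lower and 7.55% higher. The median over the 7 genes was -0.52 there, against -0.0090 over all genes. RNA came from whole tissue, so a change in the share of a cell type and a change in RNA per cell cannot be told apart.

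**Figure D1:**
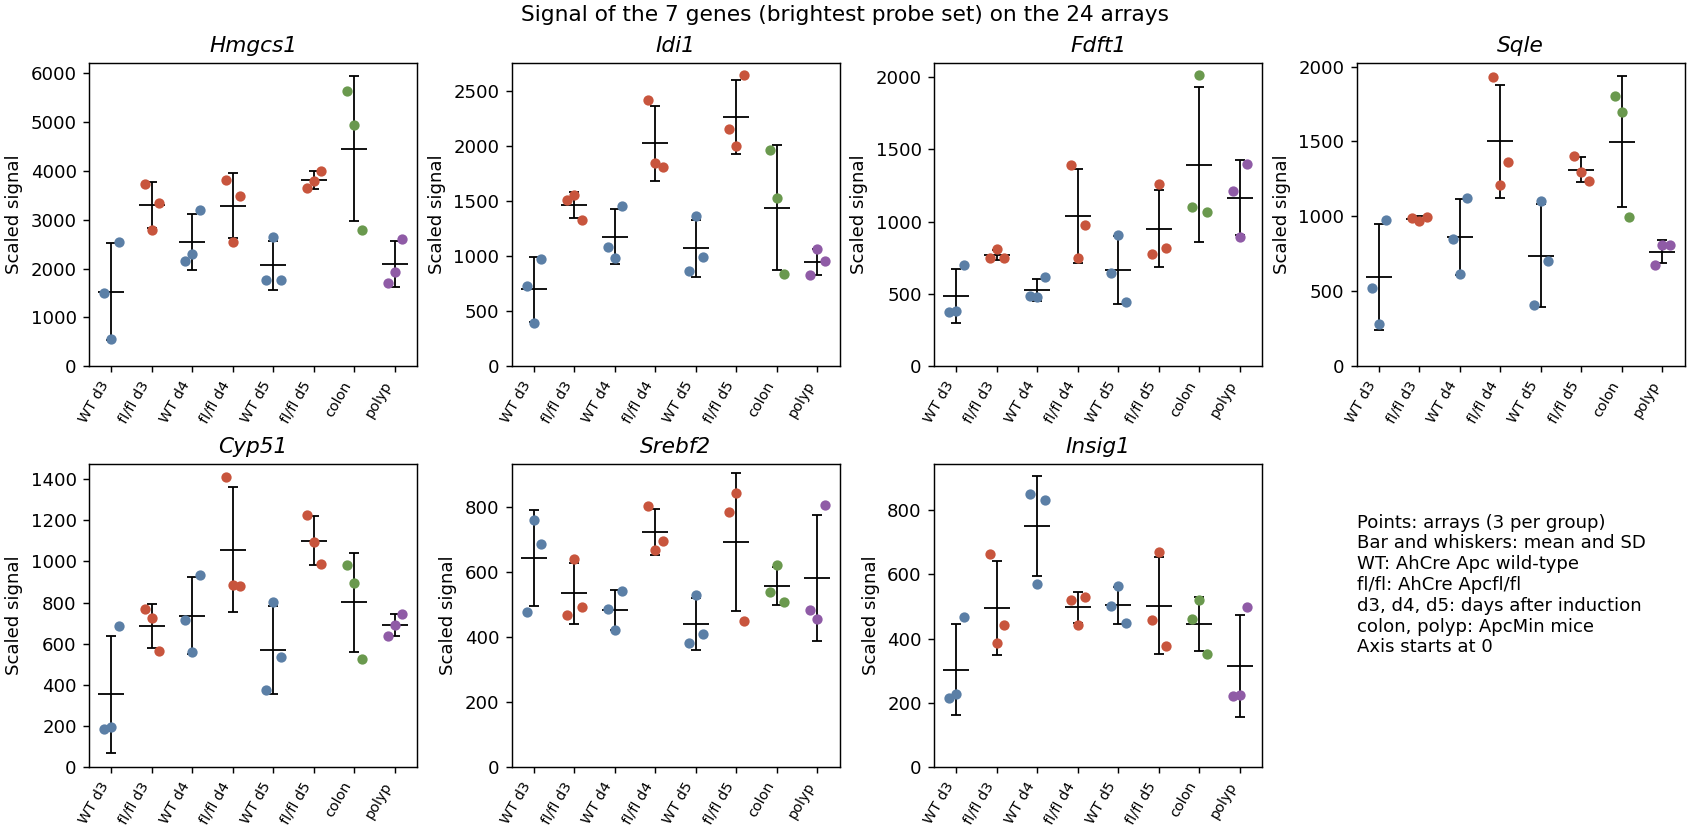
Scaled signal (linear axis from 0) of the brightest probe set of each gene on the 24 arrays, with the group mean and SD (n = 3). For Hmgcs1, all 9 Apcfl/fl arrays lie between 2538 and 4004, and the wild-type arrays of day 3 run from 557 to 2535.

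Hmgcs1 makes HMG-CoA, an early intermediate of the route, from acetyl-CoA and acetoacetyl-CoA. Its scaled signal on wild-type arrays 1 to 3 was 1492, 557 and 2535 at day 3, 2155, 2289.7 and 3204 at day 4, and 1775, 2649.8 and 1766 at day 5. On Apcfl/fl arrays it was 3739, 2796 and 3353 at day 3, 3818, 2538 and 3494 at day 4, and 3647, 3799 and 4004 at day 5. Genotypes did not overlap at days 3 and 5, while at day 4 the highest wild-type array lay above the lowest Apcfl/fl array. The difference was 1.34 ± 0.36 (adjusted p = 0.0175) at day 3, 0.36 ± 0.36 (adjusted p = 0.499) at day 4 and 0.91 ± 0.36 (adjusted p = 0.0678) at day 5. In normal colon the arrays read 5638, 4938 and 2795, and in polyps 1706, 1938 and 2614, so the highest polyp array stayed below the lowest colon array, which held for 18.8% of all genes. The polyp difference was -1.05 ± 0.30 (adjusted p = 0.0444), or 2.07-fold lower with a 95% interval of 1.30 to 3.31. All 5 probe sets of Hmgcs1 were higher in Apcfl/fl over the mean of days (0.50 to 1.03), and 3 of the 5 were called lower in polyps, as were 7.24% of all probe sets.

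Idi1 interconverts isopentenyl and dimethylallyl diphosphate, the building blocks of isoprenoids. Its wild-type arrays read 727, 392 and 979 at day 3, 1087, 989 and 1459 at day 4, and 865, 1362 and 992 at day 5. Its Apcfl/fl arrays read 1513, 1555 and 1334 at day 3, 2419, 1851 and 1808 at day 4, and 2158, 2003 and 2644 at day 5. Idi1 was the only one of the 7 genes whose brightest probe set did not overlap between genotypes on any of the 3 days. The difference was 1.14 ± 0.28 (adjusted p = 0.00904) at day 3, 0.78 ± 0.28 (adjusted p = 0.0501) at day 4 and 1.08 ± 0.28 (adjusted p = 0.00669) at day 5. The second probe set, 1423804_a_at, gave 0.80 ± 0.15 over the mean of days and was called too. Normal colon read 1963, 1527 and 836 and polyps 829.8, 1067 and 956, which overlapped, with a difference of -0.52 ± 0.31 (adjusted p = 0.305).

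Fdft1, squalene synthase, joins a pair of farnesyl diphosphates and commits them to sterols. It read 378, 381 and 703 in wild-type and 751, 810.2 and 751 in Apcfl/fl arrays at day 3. At day 4 it read 486, 479.7 and 619 in wild-type and 1393, 747 and 977 in Apcfl/fl arrays, and at day 5 645, 908 and 442 against 778, 1262 and 818. Genotypes were apart at days 3 and 4 and overlapped at day 5. Only the day 4 difference passed the test on its own (0.92 ± 0.29, adjusted p = 0.0334). Normal colon read 1102, 2012 and 1067, and polyps 1210.2, 892 and 1400.1, with overlap and a difference of -0.21 ± 0.30 (adjusted p = 0.686). The other probe set, 1438322_x_at, was called higher at day 5 as well (1.00 ± 0.29, adjusted p = 0.0154).

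Sqle, squalene epoxidase, adds oxygen to squalene and is a slow step of the late pathway. It has a single probe set here. It read 525, 285 and 976 in wild-type and 986, 972 and 999 in Apcfl/fl arrays at day 3. The Apcfl/fl arrays of day 3 thus differed by 1.03-fold from lowest to highest, and the wild-type arrays by 3.43-fold. At day 4 it read 851, 617 and 1120.4 against 1928, 1207 and 1364, and at day 5 411, 1099.7 and 702 against 1406, 1295 and 1236. Genotypes did not overlap at days 4 and 5, yet no single day passed the test (adjusted p = 0.103, 0.122 and 0.0626 at days 3, 4 and 5). In normal colon it read 1802, 1700.1 and 996 and in polyps 676, 807 and 808, without overlap. The difference of -0.92 ± 0.27 (adjusted p = 0.0474) was 1.89-fold lower, with a 95% interval of 1.25 to 2.86.

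Cyp51, the lanosterol demethylase, is the most widely conserved cytochrome P450. Its brightest probe set read 182, 192 and 684 in wild-type and 770.1, 726 and 565 in Apcfl/fl arrays at day 3, so that wild-type replicate 3 lay above the lowest Apcfl/fl array. It read 713, 559.9 and 936 against 1409, 886 and 878 at day 4, and 376, 801 and 535 against 1226, 1092 and 985 at day 5. The day 3 difference was called (1.18 ± 0.38, adjusted p = 0.0387), and that of day 5, where genotypes did not overlap, was 0.99 ± 0.38 (adjusted p = 0.0565). Its other probe set, 1422533_at, was called at day 5 (1.46 ± 0.30, adjusted p = 0.00142) and not at day 3 (0.78 ± 0.30, adjusted p = 0.0768). Normal colon read 981, 895 and 527 and polyps 639, 689 and 745, with the polyps inside the range of colon (-0.16 ± 0.27, adjusted p = 0.732).

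Srebf2 encodes SREBP2, the main activator of these enzymes, and its 2 probe sets did not give the same picture. The brightest, 1452174_at, read 478, 762 and 688 in wild-type and 469, 642 and 492 in Apcfl/fl arrays at day 3. It read 486, 421 and 542 against 804, 670.0 and 698 at day 4, and 381, 530.2 and 410.4 against 787, 846 and 451 at day 5. The genotypes were apart at day 4 alone. The difference was -0.25 ± 0.25 (adjusted p = 0.524) at day 3, 0.57 ± 0.25 (adjusted p = 0.103) at day 4 and 0.60 ± 0.25 (adjusted p = 0.0725) at day 5. The other probe set, 1426744_at, read 197, 199.8 and 381 in wild-type and 447, 746 and 498 in Apcfl/fl arrays at day 3, and was called higher at day 3 (1.10 ± 0.29, adjusted p = 0.0148), at day 5 (0.89 ± 0.29, adjusted p = 0.0284) and over the mean of days (0.86 ± 0.17, adjusted p = 0.00039). Which of the 2 follows the full transcript was not given in the sources used here. In the colon neither probe set was called: the brightest read 539, 623 and 508 in mucosa and 485, 457 and 808 in polyps (0.022 ± 0.26, adjusted p = 0.967), and 1426744_at gave 0.45 ± 0.29 (adjusted p = 0.330).

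Insig1, which retains the SREBP complex in the endoplasmic reticulum, went with the enzymes from array to array and was not called between genotypes. It read 216, 226 and 468 in wild-type and 662, 386 and 441 in Apcfl/fl arrays at day 3, a difference of 0.73 ± 0.29 (adjusted p = 0.0846). At day 4 it read 852, 571 and 830.4 against 521, 442 and 530.4, so that all Apcfl/fl arrays lay below all wild-type arrays, although the test did not call it (-0.56 ± 0.29, adjusted p = 0.167) and 21.1% of all genes were apart in this direction. After quantile normalization it was called lower (-0.81, adjusted p = 0.0451), the only 1 of 29 alternatives to do so (adjusted p = 0.0451 to 0.347). At day 5 it read 501, 563 and 448 against 459, 670.2 and 378 (-0.037 ± 0.29, adjusted p = 0.939). The day 4 minus day 3 change of this difference was not called (adjusted p = 0.267). Normal colon read 459.9, 521 and 353 and polyps 221, 225 and 499 (-0.56 ± 0.32, adjusted p = 0.285), where polyp replicate 3 lay apart from the other two. Without that array Insig1 was called lower in polyps (-0.93, adjusted p = 0.0389), as it was with array weights (-0.87, adjusted p = 0.0148), 2 of 16 alternatives (adjusted p = 0.0148 to 0.615).

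By day, 3 of the 7 genes were called higher at day 3 (Hmgcs1, Idi1 and Cyp51; 10.7% of all genes), 1 at day 4 (Fdft1; 14.9%) and 1 at day 5 (Idi1; 20.6%), and 0 were called lower on any day (7.37%, 9.81% and 12.8% of all genes). Genotypes were without overlap, with Apcfl/fl higher, in 3, 4 and 4 genes at days 3, 4 and 5, where 18%, 31.5% and 26.6% of all genes did the same. The difference between genotypes was not shown to change between days: 0 of the 15 probe sets passed any of the 3 day interactions in limma (0.0389%, 0.0259% and 0.778% of all genes did for day 4 minus 3, 5 minus 4 and 5 minus 3). The unadjusted p was under 0.05 for 2, 0 and 1 of the 7 genes in the same order. The share of all genes at this looser threshold is not given here. The day 3 calls rested on widely spread controls. Without wild-type replicate 2 of day 3, the difference fell to 0.75 for Hmgcs1 (adjusted p = 0.0964), 0.78 for Idi1 (adjusted p = 0.0558) and 0.90 for Cyp51 (adjusted p = 0.179). Without wild-type replicate 3, 6 of 7 genes were called at day 3. The share of all genes called in that fit is not given here, so a general rise in calls cannot be told apart from it. Hmgcs1 also lost its call without Apcfl/fl replicate 1 (1.24, adjusted p = 0.055), and Cyp51 when any of 5 of the 6 arrays of that day was left out (0.87 to 1.32, all but wild-type replicate 3). Fdft1 at day 4 lost its call without Apcfl/fl replicate 1 (0.69, adjusted p = 0.16), Apcfl/fl replicate 3 (0.94, adjusted p = 0.0723), wild-type replicate 1 (0.87, adjusted p = 0.0887) or wild-type replicate 2 (0.86, adjusted p = 0.102). Over the mean of days the 5 enzymes stayed called without any single array, and without the 6 arrays of day 3 the count was 6 of 7 (29.2% of all genes), with Srebf2 added (0.59, adjusted p = 0.0105). On the authors' standardized values, which do not hold the wider spread of the Apcfl/fl arrays, Hmgcs1 was not called over the mean of days (0.47, adjusted p = 0.104), and the median over the 7 genes was 0.49.

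Levels also moved with day in wild-type mice. From day 3 to day 4, Insig1 was called higher (1.33 ± 0.29, adjusted p = 0.0127, groups without overlap), as were 1.27% of all genes (8.23% were apart in this direction). None of the other 6 brightest probe sets was called, although 6 of 7 differences were above 0 (47.2% of all genes). Over all 15 probe sets, 5 were called higher between these days, as were 2.8% of all probe sets. The names of the wild-type animals start differently on each of the 3 days, so day and whatever these names stand for cannot be told apart. At day 4 no Apcfl/fl array shares the name start of the controls, so it cannot be told apart from genotype on that day either. In Apcfl/fl mice 0 of the 7 genes were called by the brightest probe set between any 2 days (0.681% of all genes from day 3 to 4, 1.46% from day 4 to 5 and 14.9% from day 3 to 5). The unadjusted p was under 0.05 for 1 gene between days 3 and 5, without a share of all genes at that threshold. Of the 15 probe sets, 2 were called higher at day 5 than at day 3 in Apcfl/fl mice. The share of all probe sets is not given here, and 14.9% of all genes were called in either direction. All 15 differences between these days were above 0 (0.015 to 0.98), as were those of 52.7% of all genes.

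**Figure D2:**
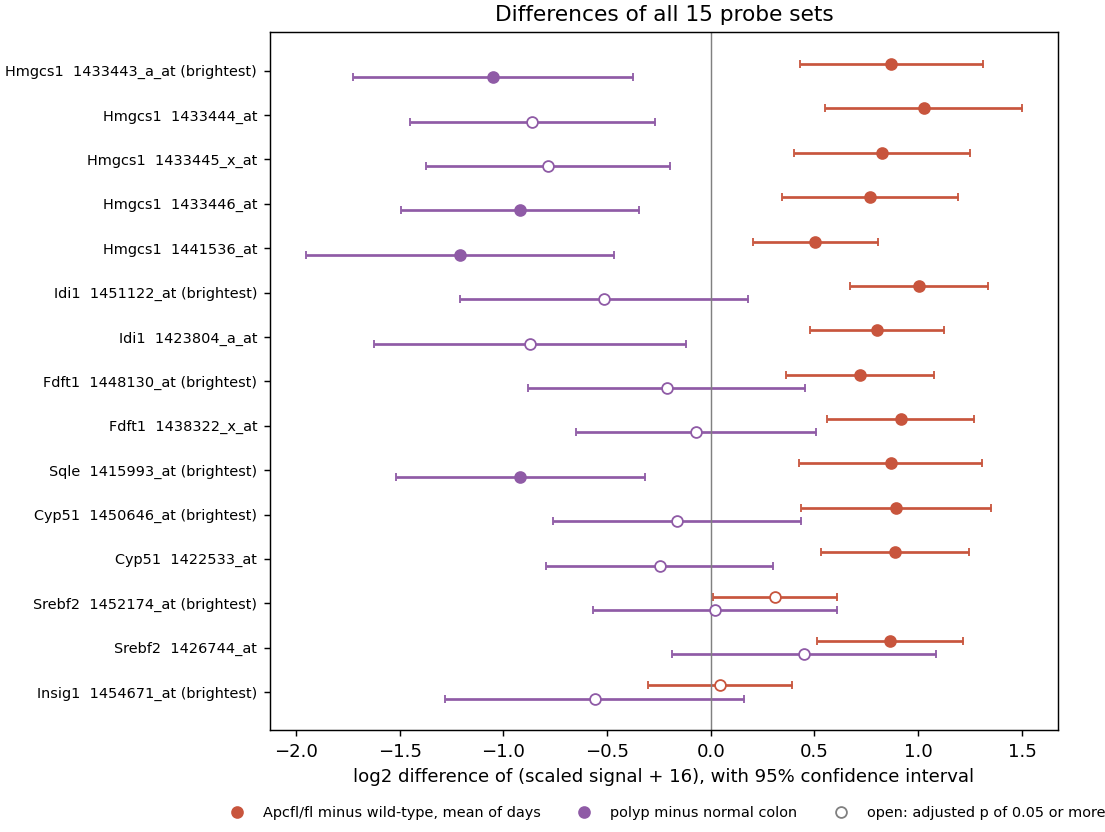
Log2 difference of every probe set of the 7 genes, Apcfl/fl minus wild-type over the mean of days 3 to 5 (red) and polyp minus normal colon (purple), with 95% confidence intervals. Filled points passed an adjusted p of 0.05, 13 of 15 in the small intestine and 4 of 15 in the colon.

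The polyp calls were close to the threshold and fragile. Hmgcs1 lost its call when any of 4 of the 6 arrays was left out: -0.85 (adjusted p = 0.12) without colon replicate 1, -0.95 (adjusted p = 0.134) without colon replicate 2, -0.92 (adjusted p = 0.154) without polyp replicate 1 and -1.01 (adjusted p = 0.109) without polyp replicate 2. Sqle lost its call when any array but colon replicate 3 was left out (-0.76 to -0.96 in these 5 fits). Neither was called after quantile normalization, with an offset of 1 or on the authors' standardized values. Colon replicate 1 carries another numerical prefix in its name than the other 5 arrays, so the values without it are also those within that prefix. Both genes kept a negative difference under each alternative run. Polyps and colon also differ in a letter code of the array names, which cannot be told apart from tissue. The 9 colonocyte markers measured were all called lower in polyps (summed signal 4862 to 7156 against 34332 to 44804), as were all 8 smooth muscle markers (1806 to 4112 against 12195 to 17508) and 9 of 10 goblet cell markers. Of 8 pan-epithelial genes 1 was called lower, with 7 of 8 differences below 0. The part of these cell types in the lower Hmgcs1 and Sqle signals was not tested.

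The difference in polyps was also tested directly against that after induced Apc loss in the small intestine, and 3 genes departed from it. The polyp difference minus the mean small intestinal difference was -1.92 ± 0.42 for Hmgcs1 (adjusted p = 0.00319), -1.78 ± 0.40 for Sqle (adjusted p = 0.0043) and -1.52 ± 0.34 for Idi1 (adjusted p = 0.00407). That is 3 of 7 genes, where 10.7% of all genes were called lower, and the median was -1.06 against -0.091 over all genes. Cyp51 (-1.06 ± 0.42, adjusted p = 0.0892), Fdft1 (-0.93 ± 0.35, adjusted p = 0.0756), Insig1 (-0.60 ± 0.36, adjusted p = 0.261) and Srebf2 (-0.29 ± 0.29, adjusted p = 0.538) were below 0 and not called. All 15 probe sets were below 0 and 10 were called lower, against 8.91% of all probe sets, among them the second probe sets of Fdft1 and Cyp51. All 3 calls held without any single array and without the arrays of day 3. The contrast spans small intestine and colon, an induced deletion and a germline mutation, and treated and untreated mice at once.

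Normal tissue differed in level too. Wild-type small intestine, averaged over days, lay below normal ApcMin colon for Fdft1 (-1.28 ± 0.25, adjusted p = 0.000565), Hmgcs1 (-1.18 ± 0.30, adjusted p = 0.00571) and Sqle (-1.09 ± 0.29, adjusted p = 0.00794), 3 of 7 genes, where 12.1% of all genes were lower. Hmgcs1 lost this call without colon replicate 1 (-0.98, adjusted p = 0.0531), and Sqle without colon replicate 1 (-0.94, adjusted p = 0.0584) or 2 (-0.98, adjusted p = 0.0565). Tissue, Apc genotype and treatment change together in this comparison. By group mean, Hmgcs1 and Fdft1 were highest in normal colon, Idi1 and Cyp51 in Apcfl/fl intestine at day 5, Sqle and Srebf2 (brightest probe set) in Apcfl/fl intestine at day 4, and Insig1 in wild-type intestine at day 4. Wild-type intestine of day 3 had the lowest mean for all of the 7 genes but Srebf2. Most neighbours in these orders overlapped: of 7 neighbouring pairs a gene, 1 was apart for Sqle (Apcfl/fl day 5 above day 3), Idi1 (Apcfl/fl day 4 above day 3) and Insig1 (wild-type day 4 above day 5), and 0 for Hmgcs1, Fdft1, Srebf2 and Cyp51.

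**Figure D3:**
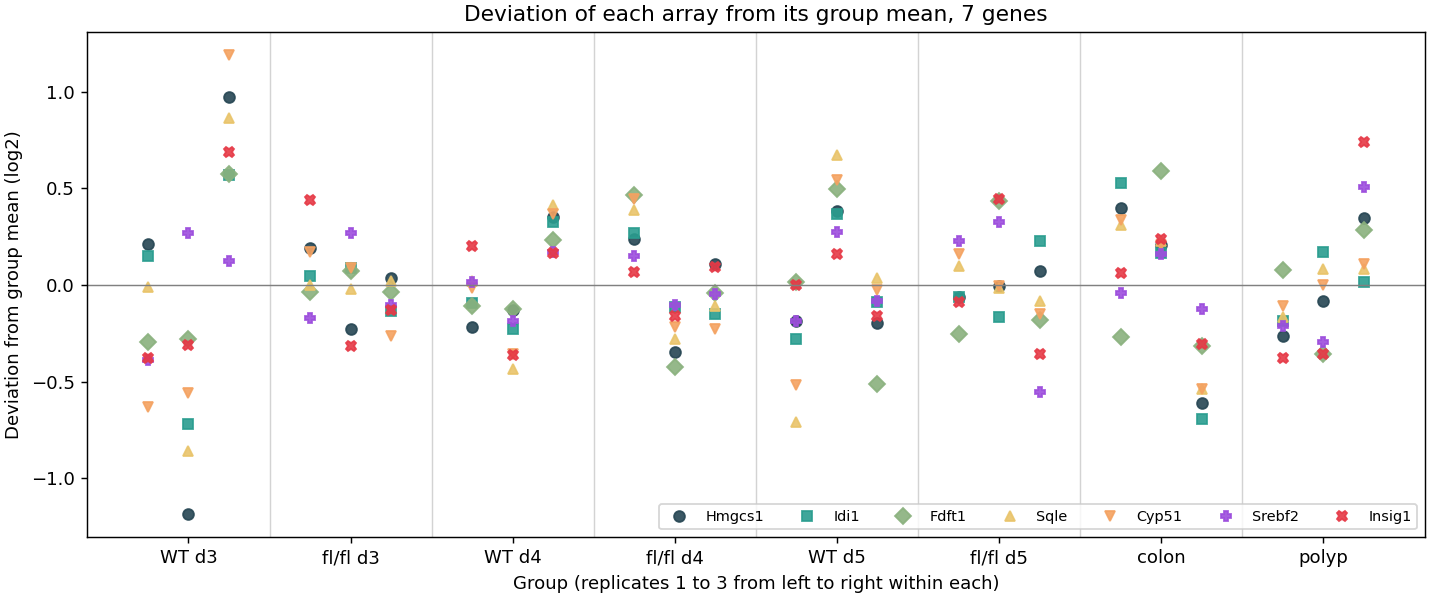
Deviation of each array from its group mean, in log2(scaled signal + 16), for the 7 genes on 24 arrays. In wild-type mice at day 3 the enzymes are low on replicate 2 and high on replicate 3, and in polyps Insig1 and Srebf2 are highest on replicate 3.

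On 10 of the 24 arrays all 5 enzymes lay on the same side of their group means, and on the others they went both ways. Averaged over the 5 enzymes, wild-type replicate 2 of day 3 lay 0.72 below its group mean on the log2 scale (all 5 below) and replicate 3 lay 0.83 above it (all 5 above). The SD of this mean deviation was 0.783 in wild-type mice at day 3, against 0.0413 (Apcfl/fl day 5) to 0.467 (normal colon) in the other 7 groups. It was smaller in Apcfl/fl than in wild-type mice at day 3 (0.0754 against 0.783) and day 5 (0.0413 against 0.436), but not at day 4 (0.326 against 0.305), a description from 3 arrays a group. In normal colon, replicate 3 lay 0.54 below its group mean with all 5 enzymes below. Over the 24 arrays, deviations from the group mean correlated between enzymes at Pearson's r of 0.42 (Idi1 with Fdft1) to 0.89 (Sqle with Cyp51), with a median of 0.76 over the 10 pairs. Without the wild-type arrays of day 3 (21 arrays) the median was 0.75. Insig1 correlated with the 5 enzymes at a median r of 0.62 and Srebf2 at 0.28. These are descriptions over arrays that share their hybridisation and scaling.

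The genes with the most similar pattern were sought in 2 ways among 7706 genes with a mean level above the median of all genes. By the 8 group means, the 8 genes closest to the mean of the 7 were Ivns1abp, Apmap, Cxxc1, Gorasp1, Gabpb2, Kdm1b, Mtus1 and Rbm7 (Pearson's r = 0.957 to 0.966), none of them in the lists of the pathway. By the deviations from group means over 24 arrays, a ranking chosen after values had been seen, the 3 closest genes were Msmo1 (r = 0.932), Mvd (r = 0.892) and Fdps (r = 0.883), each an enzyme of cholesterol synthesis. The next 5, Hsd17b12, Nasp, Golm1, Rrm1 and Armc1 (r = 0.849 to 0.878), are in no list of the pathway, and Rrm1 is on the list of cell cycle genes. The other 10 listed enzymes ranked from 163 to 3097 of the 7706. Msmo1 removes methyl groups from lanosterol derivatives, Mvd makes isopentenyl diphosphate and Fdps makes farnesyl diphosphate.

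**Figure D4:**
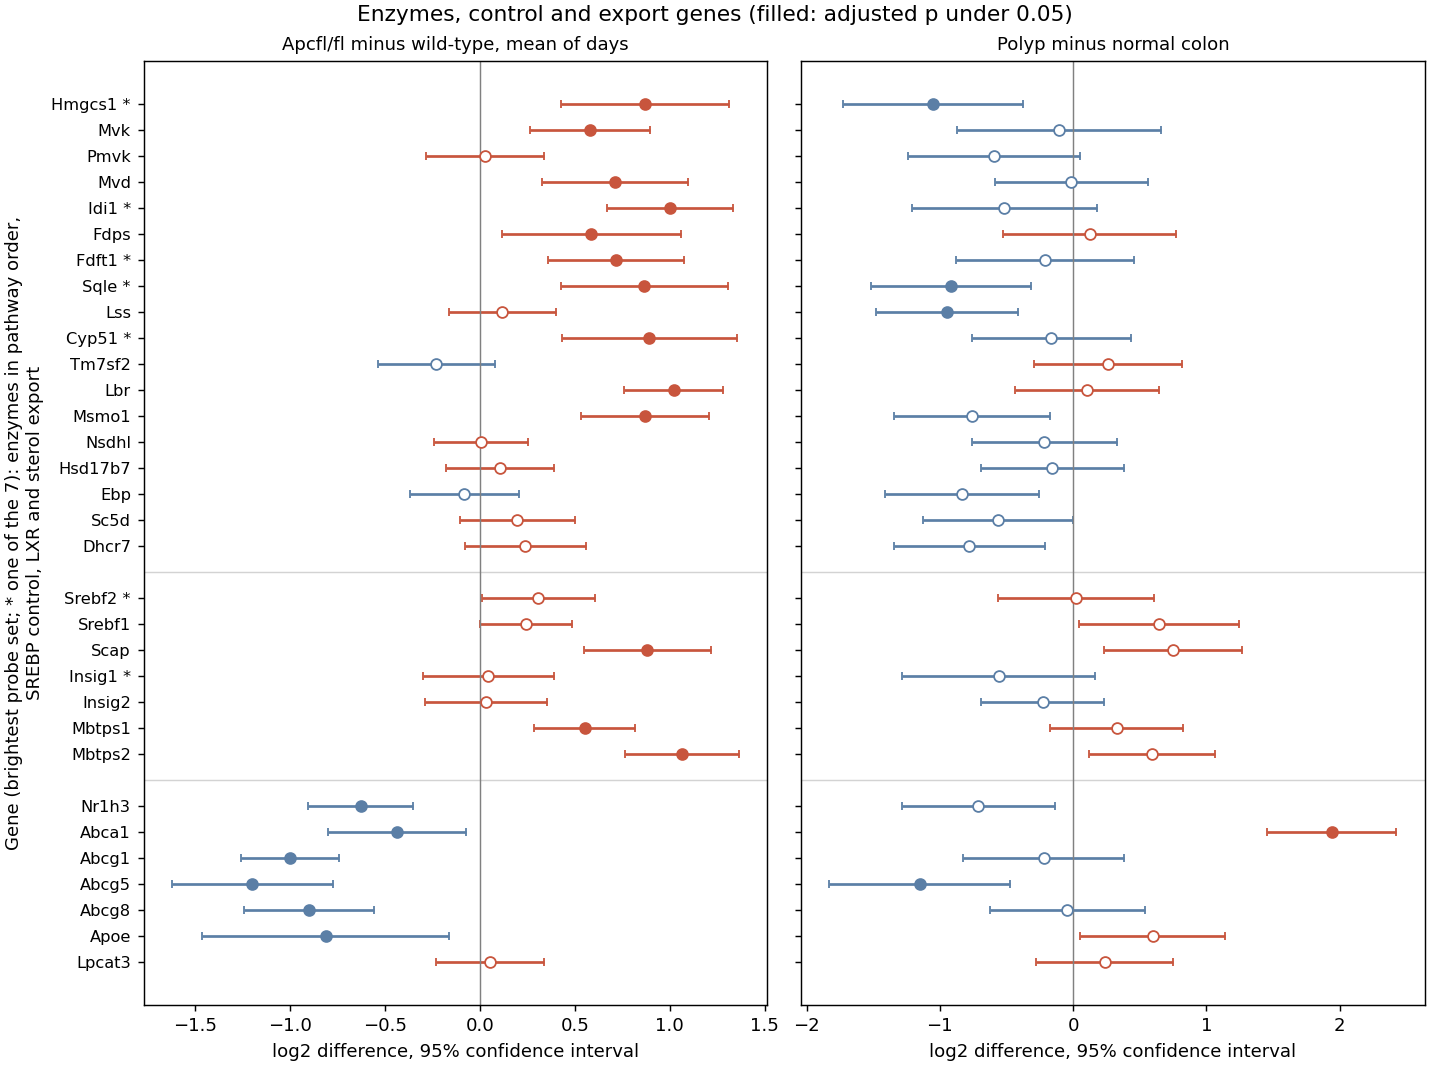
Log2 difference with 95% confidence interval of the enzymes in pathway order, of SREBP control genes and of LXR and sterol export genes, in Apcfl/fl minus wild-type over the mean of days (left) and polyp minus normal colon (right). Filled points passed an adjusted p of 0.05; colour gives the sign, and asterisks mark the 7 genes.

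Along the route, 18 listed enzymes were analysed here. Over the mean of days 10 of the 18, the 5 described included, were called higher and 0 lower (29.2% and 24.5% of all genes), with a median of 0.58. Beside the 5 described, these were the late enzymes Lbr (1.02 ± 0.12) and Msmo1 (0.87 ± 0.16) and the early ones Mvd (0.71 ± 0.18), Fdps (0.59 ± 0.23) and Mvk (0.58 ± 0.15). That is 5 of the 13 enzymes that are not among the 7, where 29.2% of all genes were called higher. Lbr is also a nuclear envelope protein, and its signal rose from 1254 ± 116 (SD, n = 3) in wild-type to 3476 ± 284 in Apcfl/fl mice at day 5. Of the 8 that did not pass the test, Dhcr7 gave 0.24, Sc5d 0.20, Hsd17b7 0.11, Pmvk 0.027, Nsdhl 0.0079, Ebp -0.082 and Tm7sf2 -0.23. The eighth, Lss, lanosterol synthase, was not called by its brightest probe set (0.12) but was by another (1426913_at, 0.99, adjusted p = 0.00318). In polyps 3 of 18 were called lower, Hmgcs1, Sqle and Lss (-0.95 ± 0.24, adjusted p = 0.0269), 0 were higher and the median was -0.37. Among all genes, 8.91% were called lower and 7.55% higher in polyps.

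Of the 7 genes that control SREBP, Srebf2 and Insig1 included, 3 were higher over the mean of days, where 29.2% of all genes were. These were the protease Mbtps2 (1.07 ± 0.14), the escort Scap (0.88 ± 0.16) and the protease Mbtps1 (0.55 ± 0.13). At day 5 Mbtps2 had a mean signal of 209 ± 26.6 (SD, n = 3) in wild-type and 613 ± 179 in Apcfl/fl mice. Insig2 was not called (0.031 ± 0.15, adjusted p = 0.882). The 2 other probe sets of Mbtps1 were not called (0.18 and 0.20). Srebf1, the relative of Srebf2 that acts mainly on fatty acid synthesis, changed direction with day: its difference was called lower at day 3 (-0.60) and higher at day 5 (0.81), and the change between these days passed the test (1.41 ± 0.29, adjusted p = 0.0278). The controls moved as well: mean Srebf1 signals at days 3, 4 and 5 were 673, 335 and 419 in wild-type mice. In Apcfl/fl mice they were 434, 493 and 744. How far the change rests on single arrays was not tested for Srebf1. In polyps 0 of the 7 were called, and Scap gave 0.75 ± 0.23 (adjusted p = 0.0574). The unadjusted p was under 0.05 for 3 of them, and the share of all genes at that threshold is not given here.

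Most listed genes of LXR and sterol export were lower in Apcfl/fl than in wild-type small intestine. Of 7 measured genes of the LXR and sterol export list, 6 were lower over the mean of days and 0 higher, where 24.5% of all genes were lower. They were Abcg5 (-1.20 ± 0.20) and Abcg8 (-0.90 ± 0.16), which together pump sterols back into the gut lumen, Abcg1 (-0.999 ± 0.12) and Abca1 (-0.44 ± 0.17), which load lipoproteins, Apoe (-0.81 ± 0.31) and Nr1h3 (-0.63 ± 0.13), the oxysterol receptor LXR alpha. Abca1 (adjusted p = 0.0435) and Apoe (adjusted p = 0.0375) were close to the threshold. The brightest probe set of Abca1 was called on no single day, and Apoe overlapped between genotypes on each day. Of the 3 probe sets of Abca1, 2 were called lower and the third, 1450392_at, was not (-0.0095). The part of lost enterocytes, whose markers are given below, was not tested for this list. In polyps Abca1 was higher (1.94 ± 0.22, adjusted p = 0.000384), from 361 ± 21.5 (SD, n = 3) in colon to 1439 ± 191 in polyps, and all 3 of its probe sets were called. Abcg5 was lower in polyps (-1.15 ± 0.30, adjusted p = 0.0317). A mixed list of sterol uptake and handling had 8 measured genes. Of these, Npc1l1, the dietary cholesterol transporter, was lower over the mean of days (-0.96 ± 0.18). Mylip (-0.49) and Lipa (-0.44) were lower too, and Npc1, which moves cholesterol out of lysosomes, was higher (0.77 ± 0.12). Stard4, a sterol carrier, was lower in polyps (-0.88 ± 0.25, adjusted p = 0.0395).

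Of 13 genes of fatty acid synthesis, 9 were higher over the mean of days, where 29.2% of all genes were. Among the 9 were Fasn (0.90 ± 0.16), Acly (0.90 ± 0.12), Elovl5 (0.86 ± 0.14) and Fads2 (0.83 ± 0.15). Only Scd1 was lower (-1.11 ± 0.41), where 24.5% of all genes were. In polyps 3 were lower and 0 higher, where 8.91% and 7.55% of all genes were. The 3 were Acss2 (-2.31 ± 0.30), Acly (-0.80 ± 0.23) and Scd1 (-0.77 ± 0.22). All 3 adipocyte markers measured were also called lower in polyps, with a summed signal of 242 to 344 against 1119 to 2047 in normal colon. In wild-type mice at day 3, replicate 1 had the highest adipocyte sum of the small intestinal arrays (4348, against 297 to 1209 on the other 17) and the highest Scd1 signal (2067, against 40.2 to 395). The part of adipocytes in the differences of Scd1, Acss2, Acly, Hmgcs1 and Sqle was not tested. Acss2 and Acly make the cytosolic acetyl-CoA from which sterols and fatty acids are both built. In the branch that leads from isoprenoids to other products, 2 of 7 measured genes were higher over the mean of days, the prenyltransferase subunits Fnta (0.59 ± 0.12) and Pggt1b (0.47 ± 0.13), a share close to the 29.2% of all genes, and 0 in polyps.

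Other groups of genes moved with the same comparisons. Over the mean of days, 20 of 23 cell cycle genes were higher (median 1.14; 29.2% of all genes were higher), with a summed signal of 20110 to 37065 in Apcfl/fl against 9837 to 18156 in wild-type arrays. In the same comparison 11 of 19 enterocyte markers were lower, as were 24.5% of all genes. In polyps 9 of the 23 cell cycle genes were higher (7.55% of all genes). The 2 of the 7 cholesterol genes called lower there (8.91% of all genes) lost their calls under several alternatives. The 4 exocrine pancreas genes measured were not called over the mean of days, but their summed signal reached 28221 on 1 array or more of Apcfl/fl at day 4 and 25251 in wild-type at day 5, against 180 to 369 at day 3 in both genotypes and in Apcfl/fl at day 5. The part of proliferation, of lost enterocytes and of pancreatic RNA in the differences of the 7 genes was not tested.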

How the data were processed

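RNA of 24 samples in 8 groups of 3 was measured on Affymetrix MOE430_2 arrays, and groups were taken from the labels. The authors deposited 1 standardized score for each probe set on each array, in 2 tables that matched in 842640 of 842640 cells. The method that turned probes into probe sets was not given in the sources used here. Each deposited score could be undone as a natural log of a linear signal from which the array mean had been taken before division by the array SD. Steps between the dimmest probe sets set the scale of an array. The lowest signal of each array was set to 1, so the signal levels before scaling rest on that setting. With that scale, 100% of signals below 500 lay within 0.1 of a step from a multiple of 0.1. Recovered signals were brought to a common geometric mean (100), 16 was added, and tests ran on the log2 of the sum, since the values were neither log2 nor linear as the planned test had assumed. The number of arrays limits the precision.

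Of 35110 probe sets listed, 44 controls were left out. Of the rest, 28153 had 1 gene symbol and 769 several, 28030 were found in RefSeq's gene table (GRCm38.p6), and 0 symbols changed. Counts cover the probe sets listed. Two-sided tests came from lmFit and eBayes of limma 3.58.1 (R 4.3.3), with Benjamini-Hochberg adjustment over 35066 probe sets, and tables were made with Python 3.11.15 and pandas 2.3.3. The 18 small intestinal arrays were fitted together, the 6 colonic arrays on their own, and all 24 for comparisons between tissues. The fit was also run on simulated data with known differences, and the outcome is not given here.

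The 7 genes, the gene lists and the comparisons were chosen with earlier results of these data known. All probe sets of the 7 genes are named, of the enzyme and SREBP lists any gene, of other lists up to 6 called genes with the largest difference, and Lss, Abca1 and Mbtps1 probe sets beyond the brightest where they differed. As alternatives, each array was left out in turn, a gene was read as the average of its probe sets, the authors' standardized values were used, and arrays were normalized by quantiles or centred on their median. The standardized values were first multiplied by the same factor on all arrays, the mean of the array SDs of log2 signals. Their differences are thus on a scale like log2 and not in units of SD. Further alternatives were array weights, robust trended variances, other arrays in the fit, offsets of 1 or 64, and a filter on dim probe sets. Leaving out day 3 was added after the spread of its controls had been seen.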

Additional observations from a re-analysis of the deposited data

Results flagged for a closer look

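The difference between polyps and normal colon departed from the mean difference between Apcfl/fl and wild-type small intestine, by a test of the difference itself over all 24 arrays in limma, for 10 of the 15 probe sets. Among all probe sets, 8.91% were called lower in this contrast. By the brightest probe set, 3 of the 7 genes departed, where 10.7% of all genes were called lower. All 10 probe sets departed downward. They were the 5 probe sets of Hmgcs1, with -1.92 for 1433443_a_at, -1.89 for 1433444_at, -1.61 for 1433445_x_at, -1.69 for 1433446_at and -1.71 for 1441536_at (adjusted p = 0.00109 to 0.00711), and that of Sqle, 1415993_at, with -1.78. Both probe sets of Idi1 were among them, with -1.52 for 1451122_at and -1.67 for 1423804_a_at. For Cyp51 and Fdft1 the dimmer probe set passed, with -1.13 for 1422533_at (adjusted p = 0.0215) and -0.98 for 1438322_x_at (adjusted p = 0.0471), and the brightest did not. Tissue, kind of mutation and treatment change together in this contrast, and their parts cannot be told apart.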

How the results depend on the processing

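No paired analysis was possible because no label ties a sample of one group to a sample of another: only the Apcfl/fl arrays of day 4 carry replicate numbers, and the names of the colonic arrays, whose tissue the methods call paired, share no animal code. Over the mean of days, 5 or 6 of the 7 genes were higher under each alternative run except on the authors' standardized values, where Hmgcs1 was not called, and the median of 0.87 became 0.49 on those values and 0.67 to 1.01 with 1 array left out. Counts of single days changed under several alternatives. The share of all genes called under each alternative is not given here, so the counts below stand without a background. At day 3 the count of 3 became 0 with only the arrays of the comparison, 1 with array weights or the authors' values, and 0 to 6 with 1 array left out (0 without wild-type replicate 2, 6 without wild-type replicate 3), with a median of 0.58 to 1.31. At day 4 the count of 1 became 0 with quantile normalization, an offset of 1 or the authors' values, 2 with an offset of 64, without dim probe sets or with trended and robust variances, 4 with only the arrays of the comparison or array weights, and 0 to 2 with 1 array left out. At day 5 the count of 1 became 0 on the authors' values, 2 without dim probe sets, with all 24 arrays, trended and robust variances or array weights, 3 with an offset of 64 or only the arrays of the comparison, 4 with the mean of all probe sets, and 1 to 4 with 1 array left out (4 without wild-type replicate 2 or 3 of day 3), and its median of 0.91 became 0.55 with quantile normalization and 0.32 on the authors' values. In polyps the count of 2 became 0 with quantile normalization, an offset of 1 or the authors' values, 1 with centring on the median or all 24 arrays, and 0 to 2 with 1 array left out. Between polyps and small intestine the count of 3 became 6 with array weights, 5 with the mean of all probe sets, and 3 to 5 with 1 array left out (5 without wild-type replicate 3 of day 3). Between wild-type small intestine and colon the count of 3 became 1 without colon replicate 1 and 1 to 4 over all arrays left out, and the median of -0.65 became -0.30 without day 3. The causes were not tested.

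Sign changes occurred only in differences that were not called. These were Srebf2 at day 3 (0.43 with the mean of all probe sets) and in polyps (-0.17 with array weights, -0.23 to 0.17 with 1 array left out), Hmgcs1 at day 4 (-0.086 on the authors' values) and Insig1 at day 5 (0.0066 with centring on the median, -0.26 to 0.14 with 1 array left out). Insig1 also changed sign over the mean of days (-0.19 with quantile normalization, -0.13 on the authors' values, -0.30 without day 3, -0.029 to 0.16 with 1 array left out) and between wild-type small intestine and colon (-0.045 to 0.23 with 1 array left out). With 1 array left out, Fdft1 in polyps ran from -0.37 to 0.082 and Cyp51 in polyps from -0.43 to 0.0040. No difference was called in the direction opposite to its reported sign under any alternative. Insig1 was called lower at day 4 after quantile normalization (-0.81) and in polyps with array weights (-0.87) or without polyp replicate 3 (-0.93).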
